A study of Mus musculus with 31 samples.

Results

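The PYHIN family was followed through 9 mouse genes, Aim2, Ifi203, Ifi204, Ifi205, Ifi207, Ifi209, Ifi211, Ifi213 and Mndal, which lie in a single cluster on chromosome 1. They were chosen by gene name, with no measured value, and are 9 of the 46072 genes in the tables. The tables held 5 of them under these names. The other 4 were found by Ensembl identifier under older names, Ifi207 as AI607873, Ifi209 as Pyhin1, Ifi211 as Mnda and Ifi213 as Pydc4.

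Messenger RNA was sequenced from RM-9 and MC-38 tumors, 1 library per mouse and 31 libraries in all, to ask whether radiation therapy (RT) changes DNA-sensing genes in the tumor microenvironment (TME). RM-9 is a mouse prostate cancer cell line and MC-38 a mouse colon cancer cell line. Each was grown under the skin of C57BL/6J mice (C57BL/6 in the labels), labelled WT, in the right hind leg. Tumors were left untreated or received 1 local dose of 15 Gy.

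RM-9 tumors comprised 4 controls, 4 at RT 3 h, 4 at RT 12 h and 3 at RT 24 h, and MC-38 tumors 4 in each of the same groups. The labels give the unirradiated controls of both models the 3 h time, so there was no control matched to 12 h or 24 h. These are tumors of transplanted lines outside the organ of origin, and the whole tissue was sequenced, so fewer cells of a type and less RNA per cell cannot be told apart. Depth, worked out from the deposited FPKM and coverage and 75-base reads, was 21.4 to 29.4 M reads per library. Levels are given in TPM (transcripts per M), which scale a gene by its length and by the rest of the library. A single mitochondrial gene, mt-Nd4l, took 35.6% to 43.5% of TPM in RM-9 and 12.9% to 29.6% in MC-38, and so set how much was left for other genes. The epithelial markers Krt8, Krt18, Krt19, Epcam and Cdh1 summed to 669 to 1526 TPM in RM-9 libraries. In MC-38 libraries they summed to 0.553 to 1.56 TPM, although the labels name both models adenocarcinoma.

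PYHIN proteins pair a pyrin domain, which binds other pyrin domains, with HIN domains that bind DNA, although some family members lack one of these parts. AIM2 senses double-stranded DNA in the cytosol and recruits the adaptor ASC (gene Pycard) and caspase-1 into an inflammasome, which matures IL-1β and IL-18 and opens gasdermin D pores. IFI204 is the mouse protein most often compared with human IFI16 and has been linked to STING and type I interferon. Most of the other mouse members are known chiefly as interferon-inducible genes of the HIN-200 group, and the single functions of IFI207, IFI209, IFI211 and IFI213 are less settled.

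The cluster ran from Aim2 to Ifi205, chr1:173350879-174031810 by the positions in the files, which are those of build GRCm38. Aim2 (ENSMUSG00000037860) spans chr1:173350879-173466040 and Ifi209 (ENSMUSG00000043263) chr1:173630917-173647928, both on the plus strand. The other 7 lie on the minus strand. Ifi213 (ENSMUSG00000073491) spans chr1:173566284-173599274, Ifi207 (ENSMUSG00000073490) chr1:173723430-173741809 and Ifi204 (ENSMUSG00000073489) chr1:173747293-173766943. Mndal (ENSMUSG00000090272) spans chr1:173857220-173942491, Ifi211 (ENSMUSG00000026536) chr1:173896345-173913046, Ifi203 (ENSMUSG00000039997) chr1:173920407-173942672 and Ifi205 (ENSMUSG00000054203) chr1:174011998-174031810. All 9 are annotated as protein-coding. Members resemble each other in sequence, which bears on how far their reads can be told apart. Of the 75-base words in Ifi211 transcripts, 63.6% also occurred in a transcript of another gene, above all Ifi205 and Ifi204. This share was 23.1% for Ifi209, all of it with Ifi214, and 16.6% for Ifi205, 13.2% for Ifi204 and 11.1% for Mndal. It was 8.07% for Ifi213, 5.71% for Ifi203 and 2.80% for Ifi207, and Aim2 shared no such word. Ifi211 sits inside the annotated span of Mndal on the same strand, and Mndal and Ifi203 overlap by 22085 bases with 37 exon bases in common. How the reads of such pairs were divided is not given in the sources used here, so levels of Ifi211 and of its partners carry that doubt.

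Several of these genes share a short run just before the start site. The promoter windows of RefSeq (GRCm38.p6, 250 bases before to 50 after each start) held 8 of the 9 members, all but Ifi204. The core of the interferon-stimulated response element, GAAANNGAAA, was searched on both strands, with the motif chosen after the windows had been seen. It occurred in 6 of the 8, Ifi203, Ifi205, Ifi207, Ifi211, Ifi213 and Mndal, and in 3.44% of all 32851 windows. Aim2 and Ifi209 held no match. The 6 runs below carry the match in capitals with its flanks in lower case, each 5′ to 3′ on the strand of its gene, here the minus strand, because they show how alike the sites of these genes are.
Ifi213 (chr1:173599326-173599355): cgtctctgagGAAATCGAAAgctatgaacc
Ifi207 (chr1:173741831-173741860): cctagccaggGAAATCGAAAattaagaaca
Mndal (chr1:173880204-173880233): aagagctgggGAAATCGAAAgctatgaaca
Ifi203 (chr1:173942508-173942537): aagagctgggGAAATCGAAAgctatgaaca
Ifi211 (chr1:173913064-173913093): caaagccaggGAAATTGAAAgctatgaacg
Ifi205 (chr1:174031870-174031899): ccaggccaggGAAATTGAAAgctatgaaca

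The form GAAATCGAAA was present in 4 members and in 0.0487% of all windows, and GAAATTGAAA in 2 members and 0.116% of windows. These forms were read from the windows of the members, so their presence there was fixed in advance and tests nothing. Of the 16 genes with GAAATCGAAA, 7 were PYHIN genes of this cluster. The Mndal and Ifi203 runs are the same 30 bases. Mndal and Ifi205 each held a second match, on the opposite strand. In 5 of the 6 genes the run shown began 35 to 73 bases before the start site, and in Ifi205 134 bases before. These matches describe letters in a window and say nothing about binding.

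At baseline the MC-38 controls held far more message of this family than the RM-9 controls, with Aim2 as the exception. Summed over the 9 members, the RM-9 controls stood at 105, 133, 101 and 137 TPM and the MC-38 controls at 410, 586, 680 and 648 TPM. The limma test on log2(TPM + 0.5), with Benjamini-Hochberg adjustment over all genes, called 8 of 9 members higher in MC-38, where 64.7% of the 15358 genes tested were called higher. The median difference of the members was 2.51 on the log2 scale, against 0.63 over all genes. Every MC-38 control exceeded every RM-9 control in 8 members, a pattern seen in 50.9% of genes. With median-ratio scaling 5231 genes were called higher and 4842 lower, against 9943 and 1641 here, and the same 8 members were called higher. Any difference in handling between the RM-9 and MC-38 libraries cannot be told apart from the model. The epithelial markers and some leukocyte markers also differed between the models.

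Ifi213 showed the widest gap. Its RM-9 controls measured 1.05, 1.21, 1.28 and 2.20 TPM and its MC-38 controls 15.4, 22.5, 27.4 and 21.7 TPM. The lowest MC-38 control was thus several times the highest RM-9 control, and the log2 difference was 3.53 ± 0.26 (SE, n = 4 and 4, limma adjusted p = 3.2e-12). Ifi203 measured 4.29, 4.63, 3.99 and 5.50 TPM in RM-9 controls and 25.5, 34.8, 48.5 and 44.1 TPM in MC-38 controls, a log2 difference of 2.89 ± 0.22 (SE).

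Ifi204 had the smallest gap of the 8. Its values were 27.2, 33.1, 21.7 and 27.3 TPM in RM-9 controls and 86.3, 125, 147 and 138 TPM in MC-38 controls, a log2 difference of 2.15 ± 0.24 (SE). The groups stayed apart in this gene as well. The remaining 5 lay between, at 2.45 for Ifi207, 2.48 for Ifi211, 2.51 for Mndal, 2.64 for Ifi209 and 2.72 for Ifi205, and all 8 had limma adjusted p of 9.4e-09 or less.

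Aim2, the inflammasome sensor, did not follow the rest. Its RM-9 controls measured 14.1, 27.2, 29.7 and 29.5 TPM and its MC-38 controls 16.5, 33.9, 32.9 and 22.9 TPM. The groups overlapped, and the log2 difference was 0.08 ± 0.25 (SE, limma adjusted p = 0.77). By deposited TPM the makeup of the family thus differed between the models. Aim2 was the most abundant member in 9 of 15 RM-9 libraries, with 13.4% to 39.5% of the family's TPM over the 15, and held 2.92% to 7.16% in MC-38. Ifi211 was the most abundant in all 16 MC-38 libraries, with 22.7% to 26.5%, and Ifi213 the least abundant in all 15 RM-9 libraries, with 0.447% to 2.08%. This order turned when levels were taken from coverage over depth, a measure described with Aim2 later. By coverage Ifi211 was the highest member in all 15 RM-9 libraries, Aim2 in none, and the lowest member was Mndal in 13 and Ifi213 in 2.

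**Figure D1:**
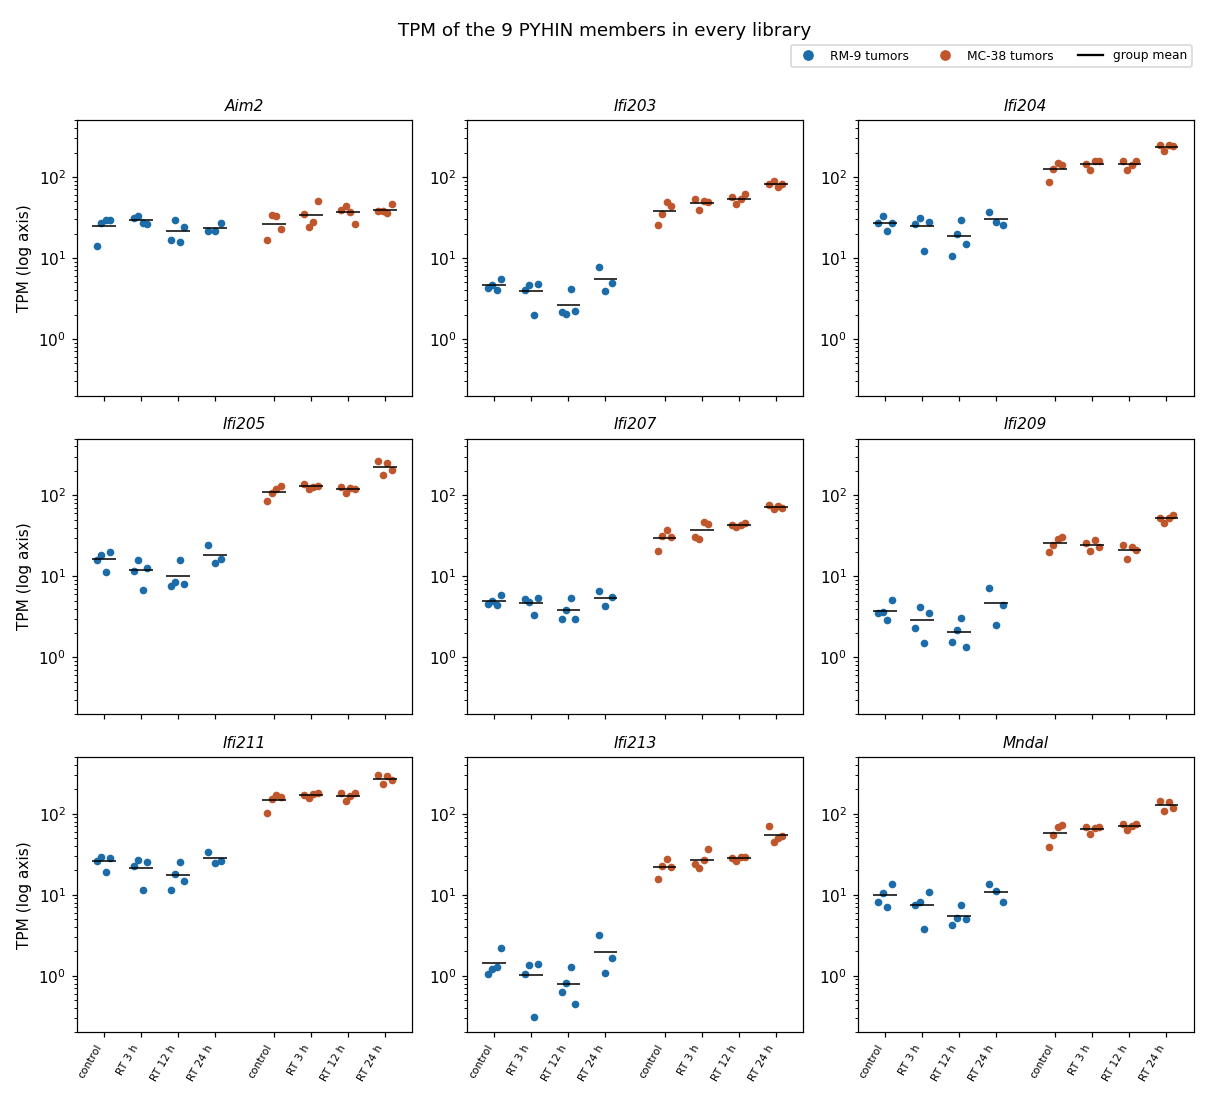
TPM of each PYHIN member (log axis) in the 31 libraries by group, RM-9 in blue and MC-38 in orange, 1 point per mouse and a line at the group mean. In 8 panels the MC-38 controls sit above all RM-9 controls, whereas Aim2 overlaps, and in MC-38 at 24 h the points of all 9 members lie above the 4 controls.

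Other genes of the same pathways were compared from fixed lists. The interferon-stimulated genes were higher in MC-38 controls in 12 of 12, led by Rsad2 at 5.36, Ifi44 at 4.60 and Oasl2 at 3.83 on the log2 scale. Of the 7 genes of the AIM2 inflammasome, 5 were called higher, Casp1 (46.1 against 4.23 TPM) and Pycard (14.04 against 4.13 TPM) among them, and 1 lower, Ninj1, named here after its values were seen. Of 7 cGAS-STING genes, 6 were called higher and Tmem173, which encodes STING, lower. These shares stand beside the 64.7% of all genes called higher, and with median-ratio scaling 4 inflammasome and 3 cGAS-STING genes were called higher. Cgas, the sensor that makes cGAMP, averaged 0.401 TPM in RM-9 controls and 14.8 TPM in MC-38 controls. Some leukocyte markers moved with the model too. Ptprc (CD45) ranged from 4.98 to 6.98 TPM in RM-9 controls and 23.3 to 36.3 TPM in MC-38 controls, and the summed macrophage markers from 361 to 579 and from 799 to 1295 TPM. Of 9 macrophage markers 8 were called higher, but with median-ratio scaling 2 were called higher and 1 lower. Of 6 T cell markers 5, and of 5 NK cell markers 5, were called higher on both scales. Neutrophil sums overlapped (11.3 to 25.1 TPM in MC-38 against 12.4 to 19.5 TPM in RM-9 controls). Dendritic cell sums overlapped too (7.60 to 9.22 against 7.17 to 10.4 TPM). The part of these markers in the difference of the PYHIN genes was not tested.

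MC-38 tumors at 24 h after RT were the group in which the family changed most. Levels of 8 members rose, by 0.91 to 1.30 on the log2 scale or about 1.88 to 2.47 times, and the summed level went from 410 to 680 TPM in controls to 1009 to 1273 TPM. Limma called 8 of 9 members higher, all but Aim2, where 13.2% of the 15698 genes tested were called higher. With median-ratio scaling the calls over all genes went from 2073 higher and 86 lower to 1232 higher and 1280 lower, and the same 8 members were called higher. The median difference of the 9 was 1.03, against 0.22 over all genes. All 9 members had every irradiated mouse above every control, a pattern seen in 14.8% of genes.

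Ifi213 and Ifi207 had the largest differences. Ifi213 measured 69.8, 44.1, 50.1 and 52.7 TPM at 24 h against 15.4, 22.5, 27.4 and 21.7 TPM in controls, a log2 fold change of 1.30 ± 0.19 (SE, limma adjusted p = 0.0007). Ifi207 measured 75.7, 67.8, 74.6 and 70.1 TPM against 20.3, 31.5, 37.0 and 30.4 TPM, a log2 fold change of 1.29 ± 0.17 (SE, limma adjusted p = 0.00046). In both genes the groups were separated by a wide margin, and control mouse 1 was the lowest of all. Among the 15698 genes ranked by fold change, Ifi213 stood at position 116 and Ifi207 at position 125.

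Mndal and Ifi203, whose annotated spans overlap, moved by nearly the same amount. Mndal stood at 144, 107, 139 and 116 TPM at 24 h and at 39.1, 53.8, 68.2 and 71.4 TPM in controls, a log2 fold change of 1.14 ± 0.16 (SE, limma adjusted p = 0.00064). Ifi203 stood at 81.0, 89.7, 75.2 and 81.6 TPM and at 25.5, 34.8, 48.5 and 44.1 TPM, a log2 fold change of 1.13 ± 0.17 (SE, limma adjusted p = 0.00082). Neither gene had a control mouse within the range of the irradiated mice.

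Ifi204, Ifi205 and Ifi211, which share sequence, were the most abundant members in MC-38. Ifi204 measured 246, 209, 250 and 238 TPM at 24 h against 86.3, 125, 147 and 138 TPM, a log2 fold change of 0.95 ± 0.14 (SE, limma adjusted p = 0.001). Ifi205 measured 266, 179, 253 and 204 TPM against 84.8, 108, 119 and 129 TPM, a log2 fold change of 1.03 ± 0.14 (SE, limma adjusted p = 0.00045). Irradiated mice 1 and 3 were the highest in both genes, and mouse 2 the lowest. Ifi211 measured 301, 229, 293 and 260 TPM against 102, 151, 171 and 159 TPM, a log2 fold change of 0.91 ± 0.14 (SE, limma adjusted p = 0.0012).

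Ifi209, which shares words with Ifi214, measured 51.8, 45.8, 52.8 and 56.5 TPM at 24 h. Its controls measured 20.2, 24.3, 28.5 and 30.8 TPM, and the log2 fold change was 0.99 ± 0.15 (SE, limma adjusted p = 0.00089). The groups were again well apart. Aim2 measured 38.1, 38.2, 35.7 and 45.6 TPM at 24 h against 16.5, 33.9, 32.9 and 22.9 TPM. Here the margin was narrow, since the lowest irradiated mouse lay just above the highest control, and the log2 fold change of 0.61 ± 0.24 (SE) did not pass (limma adjusted p = 0.10).

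Control mouse 1 of MC-38 was the lowest of its group in all 9 members. It also had the largest mt-Nd4l share, 29.6% of TPM, and 11280 TPM of summed skeletal muscle markers, against 18.7 to 1843 TPM in the other controls. Without this mouse the same 8 members were still called higher, at 0.75 to 1.15 on the log2 scale, and Aim2 was at 0.41 (limma adjusted p = 0.30). The exact two-sided permutation test of mean TPM gave p = 0.0286 for each of the 9 members at 24 h, the smallest value that 4 mice against 4 allow.

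**Figure D2:**
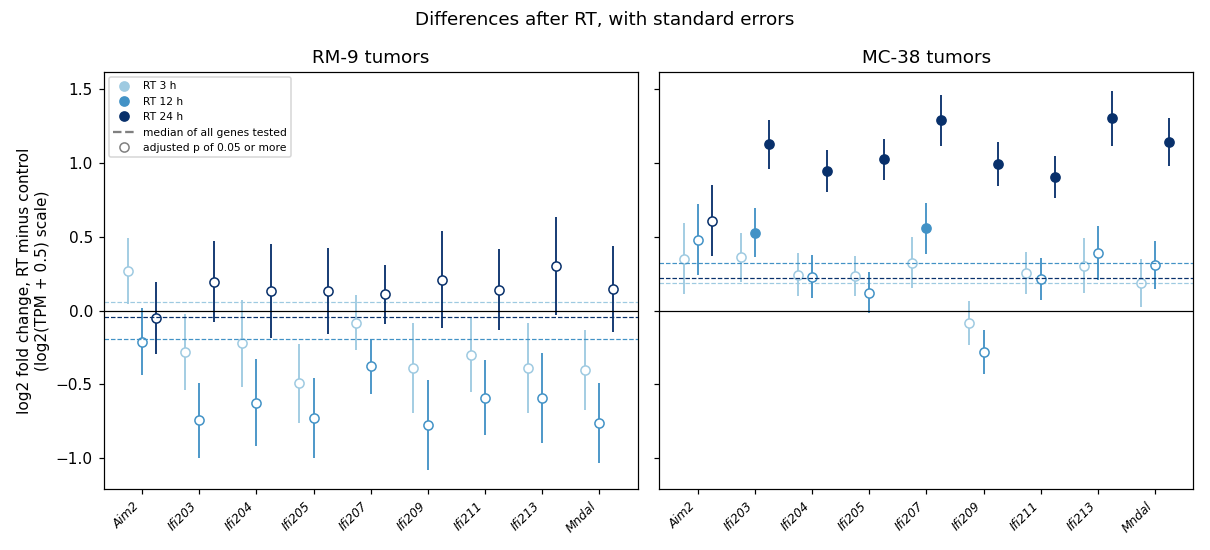
Log2 fold change of each member, RT minus control, on the log2(TPM + 0.5) scale in RM-9 (left) and MC-38 (right), with bars for the standard error, filled points for limma adjusted p under 0.05 and dashed lines at the median of all genes tested. At 24 h in MC-38 the 8 filled points lie between 0.91 and 1.30, and no point is filled in RM-9.

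The earlier MC-38 times were different. At 3 h limma called 0 of 9 members, with log2 fold changes of -0.09 to 0.36 (lowest adjusted p = 0.24). Of all genes 0.0637% were called. A single member, Ifi203, had an unadjusted p under 0.05, as 19.9% of genes did, and Dunnett comparisons on TPM called 0 members. At 12 h limma called Ifi203 (54.1 ± 6.4 against 38.2 ± 10.2 TPM, SD, n = 4) and Ifi207 (43.2 ± 2.1 against 29.8 ± 7.0 TPM, SD, n = 4) higher. Their log2 fold changes were 0.53 ± 0.17 (SE, limma adjusted p = 0.030) and 0.56 ± 0.17 (SE, limma adjusted p = 0.029). At that time 28.5% of all genes were called higher and the median gene stood at 0.33, so 2 of 9 was a smaller share than over all genes. With median-ratio scaling the calls over all genes went from 4469 higher and 406 lower to 995 higher and 1544 lower. Neither call remained when libraries were scaled by the median ratio of their genes (0.18 and 0.21) or when control mouse 1 was left out (0.35 and 0.39). This mouse was not alone in that, since over the 8 fits that left a mouse out Ifi203 was called in 4 and Ifi207 in 3.

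Ifi209 went the other way at 12 h. It measured 24.4, 16.5, 22.9 and 20.97 TPM against 20.2, 24.3, 28.5 and 30.8 TPM in controls, a log2 fold change of -0.28 ± 0.15 (SE, limma adjusted p = 0.14). With median-ratio scaling it was called lower, at -0.62 (limma adjusted p = 0.011), and with coverage over depth at -0.52 (limma adjusted p = 0.021). On these scales, too, it was called higher at 24 h.

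Between 12 h and 24 h the 8 members other than Aim2 moved to a range of their own. Each had every 24 h mouse above every 12 h mouse, where 4.95% of genes did, and above every 3 h mouse, where 6.05% did. The ratio of mean TPM, 24 h over 12 h, ran from 1.51 for Ifi203 to 2.44 for Ifi209. Aim2 stood at a ratio of 1.08, and its 24 h and 12 h mice overlapped (exact two-sided permutation p = 0.57).

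The RM-9 tumors gave no called member at any time. At 3 h the log2 fold changes ran from -0.49 (Ifi205) to 0.27 (Aim2), where 0.228% of the 14013 genes tested were called. At 12 h all 9 were negative, from -0.77 (Ifi209) to -0.21 (Aim2, at 0.0061 under median-ratio scaling and 0.090 by coverage), with a median of -0.62 against -0.19 over all genes, where 8.37% were called. At 24 h they ran from -0.05 (Aim2) to 0.30 (Ifi213), where 0.0% were called. The members with an unadjusted p under 0.05 numbered 0 at 3 h, 5 at 12 h and 0 at 24 h, where 21.8%, 31% and 4.86% of all genes had one. Dunnett comparisons on TPM called 0 members at each time. With median-ratio scaling the calls over all genes went from 28 higher and 4 lower to 225 and 158 at 3 h, and from 10 higher and 1163 lower to 13 and 6 at 12 h. The interferon-stimulated genes had a median of -0.96 at 12 h, with 1 of 12 called lower, Ifit3 at -1.41 (limma adjusted p = 0.042), and 0 with median-ratio scaling. Some leukocyte markers moved with the RM-9 12 h values. Macrophage markers were called lower in 5 of 9, and summed to 177 to 344 TPM against 361 to 579 TPM in controls. Ptprc was called lower, at -0.77 (2.52 to 3.61 against 4.98 to 6.98 TPM). With median-ratio scaling none of these markers was called, and their part in the PYHIN values was not tested.

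Single mice weighed heavily in RM-9. Ifi203 at 12 h measured 2.14, 2.06, 4.13 and 2.19 TPM against 4.29, 4.63, 3.99 and 5.50 TPM in controls, so that 3 of 4 irradiated mice lay below every control and mouse 3 lay among them. Ifi205 measured 7.53, 8.45, 15.96 and 8.13 TPM against 16.002, 18.5, 11.4 and 19.9 TPM, with the same mouse apart. Mouse 3 was the highest of the 12 h group in 8 of 9 members, all but Aim2. Without it limma called 2 members lower, Ifi203 at -0.95 and Ifi205 at -0.96 (adjusted p = 0.041 for each). In that fit 7.22% of all genes were called, 7 higher and 1006 lower. Each of the 2 members was called in only 1 of the 8 fits that left a mouse out.

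In the same way mouse 3 was the lowest of the RM-9 3 h group, and mouse 1 the highest of the 24 h group, in 8 of 9 members, again all but Aim2. Ifi213 at 24 h measured 3.20, 1.08 and 1.66 TPM against 1.05, 1.21, 1.28 and 2.20 TPM in controls. A single mouse lay above the controls there, and without it the log2 fold changes of 7 members turned below 0, from -0.12 for Ifi209 to -0.01 for Mndal. These mice also stood at the end of their groups in the summed interferon-stimulated genes. The 12 h group had 54.6, 52.6, 129 and 51.2 TPM, with mouse 3 high, the 3 h group 107, 140, 44.3 and 131 TPM, with mouse 3 low, and the 24 h group 235, 129 and 134 TPM, with mouse 1 high. Summed skeletal muscle markers were high in 2 of these mice as well, 934 TPM in mouse 3 at 12 h and 2296 TPM in mouse 1 at 24 h. Their part in the levels of the PYHIN genes was not tested.

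**Figure D3:**
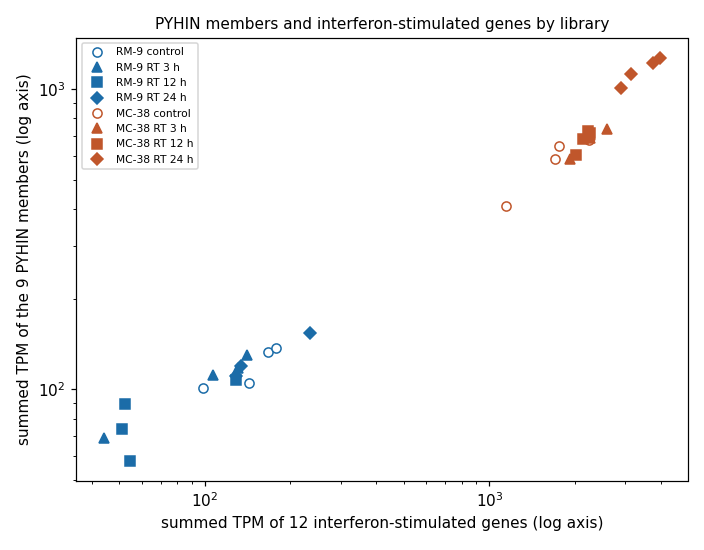
Summed TPM of the 9 PYHIN members against the summed TPM of 12 interferon-stimulated genes, both on log axes, 1 point per library, RM-9 in blue, MC-38 in orange, open circles for controls and other shapes for RT times. The MC-38 24 h libraries lie highest on both axes (1009 to 1273 and 2891 to 3969 TPM), and the RM-9 libraries lowest (57.9 to 154 and 44.3 to 235 TPM).

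Whether RT acted differently in the 2 models was tested with the interaction term, which subtracts the RM-9 change from the MC-38 change. At 24 h Ifi207 was called, at 1.18 ± 0.27 (SE, limma adjusted p = 0.027), where 1.81% of the 15358 genes were. The other 8 members had differences of 0.66 to 1.00 that did not pass, the nearest being Mndal at 0.99 ± 0.34 (SE, limma adjusted p = 0.099). In limma the Ifi207 call was lost without MC-38 control mouse 1 (1.01, adjusted p = 0.064), without RM-9 control mouse 4 (1.10, adjusted p = 0.068) and without RM-9 24 h mouse 2 (1.03, adjusted p = 0.056). At 12 h 7 members were called, from 0.80 for Ifi211 to 1.27 for Ifi203, but so were 45.4% of all genes, whose median was 0.50. Under median-ratio scaling 0 members were called at 12 h, and the calls over all genes went from 6903 higher and 72 lower to 235 and 201. At 24 h they went from 278 higher and 0 lower to 220 and 44. At 3 h 0 of 9 were called (lowest limma adjusted p = 0.47), as were 0.0% of all genes. There 1 member, Ifi205, had an unadjusted p under 0.05, as did 9.89% of genes.

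The level of Aim2 depended on how it was measured. The files also give the mean read coverage of each gene. Coverage over depth was put on an FPKM-equivalent scale by the most common ratio of FPKM to coverage in each library. Deposited FPKM was less than 5% above this value, or below it, in 47.6% of 17060 genes. The scale came from these same genes, so a ratio near 1.00 in many of them was built in. For Ifi207 and Ifi211 the ratio of deposited FPKM to coverage over depth was 1.00 at the median, for Ifi209 1.05, for Ifi204 1.59, for Ifi203 2.00, for Ifi205 2.58 and for Ifi213 3.25. For Aim2 it was 4.43 and ranged from 2.79 to 5.30 between libraries, and for Mndal it was 39.4. Only 1.70% of genes exceeded 10 times. How the deposited values were derived for genes with several transcripts is not given in the sources used here, and Aim2 has 7 annotated transcripts and Mndal 10.

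By coverage over depth the RM-9 controls of Aim2 stood at 6.26, 7.22, 8.51 and 7.22 and the MC-38 controls at 3.88, 5.46, 5.75 and 4.69. Every RM-9 control lay above every MC-38 control, the reverse of the other 8 members, and the log2 difference was -0.53 (limma adjusted p = 4.5e-05), although by TPM it was 0.08. How many of all genes separate in this way by coverage was not counted. By coverage 3686 of the 15358 genes tested were called lower in MC-38 controls and 6873 higher. With median-ratio scaling of TPM the Aim2 difference was -0.58 (limma adjusted p = 0.017), where 4842 genes were called lower and 5231 higher. At 24 h in MC-38 Aim2 measured 5.83, 5.98, 6.46 and 6.42 by coverage, again above every control by a small margin, with 0.31 on the log2 scale (limma adjusted p = 0.063). For this separation, too, no share of all genes by coverage was counted. The other 8 members kept their calls at 24 h on this scale, at 0.66 for Mndal to 1.07 for Ifi207. Levels of Mndal relative to other members are uncertain, since by coverage it averaged 1.27 in MC-38 controls, below the other 8.

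**Figure D4:**
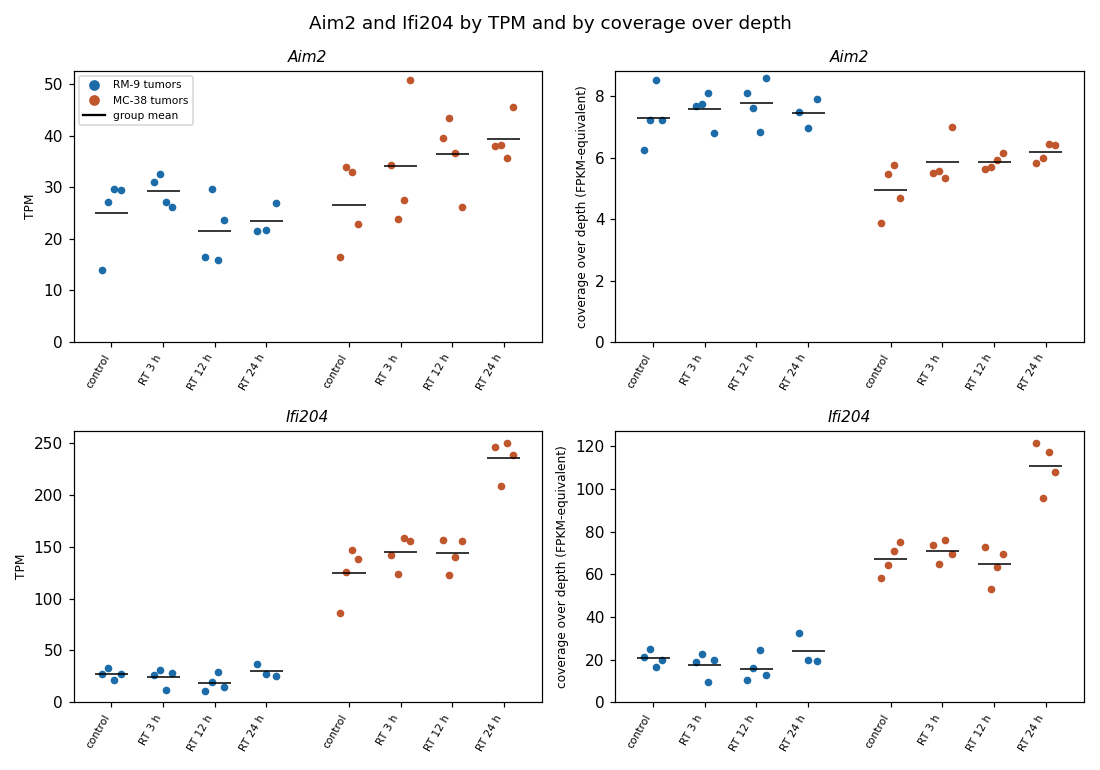
Aim2 (top) and Ifi204 (bottom) by TPM (left) and by coverage over depth in FPKM-equivalent units (right), axes starting at 0, 1 point per mouse with the group mean as a line, RM-9 in blue and MC-38 in orange. On both scales Ifi204 is higher in MC-38 than in RM-9 controls and highest in MC-38 at 24 h. Its MC-38 12 h mean lies above controls by TPM (144 against 124) but below them by coverage (64.8 against 67.1). The RM-9 controls of Aim2 overlap the MC-38 controls by TPM and lie above them by coverage (6.26 to 8.51 against 3.88 to 5.75).

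The partners of AIM2 were followed in MC-38 at 24 h. Of the 7 inflammasome genes limma called Casp1, at 75.01 against 46.1 TPM (0.70 ± 0.16, SE, adjusted p = 0.011), and Casp8, at 56.3 against 38.1 TPM (0.58 ± 0.14, SE, adjusted p = 0.014), higher. The remaining 5 did not pass. Pycard, the adaptor, stood at 9.88 against 14.04 TPM (-0.45, limma adjusted p = 0.27). The cytokine genes Il1b (31.2 against 22.9 TPM) and Il18 (7.67 against 4.95 TPM) were at 0.45 and 0.62 on the log2 scale (limma adjusted p = 0.11 and 0.079). At 12 h 2 of the 7 were called higher and 1 lower, Pycard, which fell to 5.57 TPM (-1.28 ± 0.27, SE, limma adjusted p = 0.010). With median-ratio scaling 0 were called higher and 4 lower. Of the 15698 genes tested at 12 h, 4469 were called higher and 406 lower, and 995 and 1544 with median-ratio scaling. At that time 7 of 9 macrophage markers were also called lower, with sums of 271 to 672 against 799 to 1295 TPM, and so was Ptprc, at -0.66. Their part in the fall of Pycard was not tested. Of 5 upstream regulators of AIM2, 4 were called higher at 24 h, led by the guanylate-binding proteins Gbp5 (1.29 ± 0.13, SE) and Gbp3 (0.92 ± 0.13, SE) and by the transcription factor Irf1 (0.63 ± 0.19, SE). With median-ratio scaling 2 of these 5 and 1 of the 7 inflammasome genes were called higher.

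Neighbouring pathways were counted from the same lists at MC-38 24 h, when 13.2% of all genes were called higher. The interferon-stimulated genes rose in 12 of 12, with a median of 0.99, led by Mx1 (1.67 ± 0.26, SE), Ifit3 (1.49 ± 0.18, SE) and Rsad2 (1.41 ± 0.23, SE). The cGAS-STING list rose in 3 of 7, in Ifnb1 (4.38 against 0.684 TPM), in Tmem173 (65.4 against 35.7 TPM) and in Cgas (21.9 against 14.8 TPM). The other DNA sensors rose in 3 of 11, Zbp1 (0.89 ± 0.16, SE), Xrcc5 (0.51 ± 0.12, SE) and Mre11a (0.46 ± 0.14, SE). With median-ratio scaling 12 interferon-stimulated genes, 3 cGAS-STING genes and 1 other DNA sensor were called higher. The PYHIN median of 1.03 was close to that of the interferon-stimulated genes, and no test compared the lists.

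The other PYHIN genes of the cluster followed the members. Of 5 found in the tables, 4 were tested and all 4 rose in MC-38 at 24 h. Ifi206 measured 193, 125, 148 and 135 TPM against 30.6, 44.7, 59.5 and 53.8 TPM in controls, a log2 fold change of 1.68 ± 0.18 (SE, limma adjusted p = 0.00021), above that of every member. Ifi208 (1.15 ± 0.19, SE) and Ifi214 (1.12 ± 0.17, SE) also rose. The other PYHIN genes share sequence with members, so their reads may not be fully told apart. Of their 75-base words, Ifi206 shared 6.14% and Ifi208 9.04% with Ifi213, Ifi214 shared 9.996% with Ifi209 and Ifi203-ps 10.8% with Ifi203. Ifi202b, the one not tested, reached at most 0.458 TPM in any library. Of 47 further genes within 500 kb of the cluster, 3 were expressed enough to be tested in MC-38. The receptor gene Ackr1 did not pass (-0.25 ± 0.54, SE, limma adjusted p = 0.79), and Gm18752 rose (1.46 ± 0.18, SE). Gm18445 was at 2.11 ± 0.48 (SE), from means of 0.232 TPM in controls, 0.781 at 3 h, 0.387 at 12 h and 2.33 at 24 h. It passed the filter of 0.5 TPM only through its 24 h libraries, so its rise was partly fixed by the filter. Gm18752 and Gm18445 lie between PYHIN genes, and both share 75-base words with a PYHIN gene, Gm18752 with Ifi206 and Gm18445 with Ifi207.

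Members other than Aim2 varied together from mouse to mouse. Pearson's r between a member and the mean of the other 8, on log2(TPM + 0.5), was 0.92 to 0.96 over the 15 RM-9 libraries and 0.83 to 0.99 over the 16 MC-38 libraries. For Aim2 it was 0.07 and 0.57. The genes most like the family mean in RM-9 were Samd9l (0.97), Dhx58 (0.97), Ifit2 (0.96), Rtp4 (0.96) and Gm12250 (0.96) among 12686 genes. In MC-38 they were Ifi206 (0.99), Ifit1bl2 (0.98), Ube2l6 (0.98), Phf11d (0.97) and Ifi203-ps (0.97) among 14226. Of these, Ifi206 and Ifi203-ps share sequence with members. The lists of the 50 closest genes had 14 in common, among them Isg15, Ifit1, Mx1 and Ifi206. These are descriptions over libraries that share RT groups and compositional scaling.

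Leukocyte markers at MC-38 24 h were counted beside the family. Ptprc measured 18.1 to 29.9 TPM against 23.3 to 36.3 TPM in controls. The summed macrophage markers were lower, at 619 to 775 against 799 to 1295 TPM, with 1 of 9 called lower, Csf1r at -0.88 (limma adjusted p = 0.020), and 0 called higher. Of the 6 T cell markers 2 were called lower, and 0 of 5 tested neutrophil markers and 0 of 5 NK cell markers were called. The 6 neutrophil markers summed to 20.4 to 36.8 against 11.3 to 25.1 TPM, and the 5 tested had a median difference of 0.65, against 0.22 over all genes. The NK cell markers summed to 27.8 to 60.6 against 25.25 to 50.04 TPM, with a median of 0.05. With median-ratio scaling 4 macrophage and 4 T cell markers were called lower. Of 2 tested dendritic cell markers 1 was called higher on both scales, Zbtb46 at 0.74 ± 0.17 (SE), and the 6 markers summed to 10.1 to 12.9 against 7.60 to 9.22 TPM, while Flt3, Xcr1, Clec9a and Siglech averaged under 0.5 TPM. Of 5 endothelial markers 2 were called higher, and 0 with median-ratio scaling, and they summed to 56.7 to 75.5 against 41.1 to 55.9 TPM. Skeletal muscle markers summed to 10.7 to 3588 TPM at 24 h and 18.7 to 11280 TPM in controls, and 0 of 6 were called. The part of any of these cell types in the PYHIN levels was not tested.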

How the data were processed

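Whole tumors were sequenced as stranded mRNA, single-end 75-base reads, 1 library per mouse, and libraries were grouped by their labels into 8 groups. For each library the deposited table held TPM, FPKM and mean read coverage by gene. The deposited TPM values scale to the library total, the deposited FPKM values are per kilobase and M reads, and the deposited coverage is not scaled for depth. The labels name bcl2fastq 2.17 and build GRCm39. Positions in the files were those of GRCm38 (100.0% of 45223 genes on the same chromosome as in GENCODE M21, 91.1% with the same start or end). The aligner and counter are not given in the sources used here. Rows with the same gene identifier were summed.

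From the deposited TPM, limma 3.58.1 (R 4.3.3, empirical Bayes with trend) was fitted to log2(TPM + 0.5) over genes with mean TPM of at least 0.5. Each model had 1 fit with its 4 groups, and all 31 libraries shared a fit for the interaction and baseline comparisons. Fold changes on this scale understate changes of low genes. Benjamini-Hochberg adjustment ran over all genes tested, with a threshold of 0.05, and limma was tested on simulated data. Mean TPM was compared by exact two-sided permutation, with 70 assignments for 4 against 4, 35 for 3 against 4 and a smallest p of 0.0286 for 4 against 4. Depth limits precision, but the tables hold no read counts and no counting interval was set. Figures and summaries used Python 3.11.15, pandas 2.3.3, scipy 1.17.1 and matplotlib 3.10.9. Transcript and promoter sequences came from GENCODE M21 and RefSeq GRCm38.p6.

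All 9 members were named. Of other lists the 3 genes with the largest change among those called were named, with genes that define the pathway. The 5 genes most like the family mean had mean TPM of at least 1. Members and lists were chosen with earlier results of these data known. Alternatives were pseudocounts of 0.1 and 1, no filter or a minimum of 5 TPM, median-ratio scaling, removal of mitochondrial genes, no trend, only the compared groups, a replicate block, Dunnett comparisons and each mouse left out. FPKM and coverage over depth were added after seeing the data. Some items, a promoter motif and a marker list among them, are not reported here.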

Additional observations from a re-analysis of the deposited data

Results flagged for a closer look

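A mouse stood apart from the rest of its group in 5 of the 63 sets of 4 values examined, by the gap to its neighbour as a share of the group's range, set against Dixon's 95% limit. Chance alone flags about 1 set in 20. The gap was 0.844 for the lowest Aim2 value among RM-9 controls (14.1 TPM). It was 0.935 for the highest Ifi203 value and 0.890 for the highest Ifi205 value in RM-9 at 12 h, both from mouse 3. It was 0.878 for the lowest Ifi213 value in MC-38 at 12 h and 0.873 for the lowest Mndal value in MC-38 at 3 h, both from a mouse numbered 2.

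The effect of RT differed between the models by the limma interaction test in 7 members at 12 h, with the RM-9 change subtracted from the MC-38 change. On the log2 scale the difference was 1.27 for Ifi203, 0.853 for Ifi204, 0.849 for Ifi205, 0.935 for Ifi207, 0.801 for Ifi211, 0.981 for Ifi213 and 1.07 for Mndal, while 45.4% of all genes were called. With median-ratio scaling 0 members and 2.84% of all genes were called at 12 h. At 24 h the difference was 1.18 for Ifi207, where 1.81% of all genes were called. That call held in 12 of the 15 fits that left a mouse out.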

How the results depend on the processing

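The 8 members called higher in MC-38 at 24 h, and the 8 called at baseline, were called in every alternative, while calls at 12 h and in the interaction depended on scaling and on single mice, and the cause was not tested. Members called at MC-38 12 h went from 2 to 0 with no filter and with only the compared groups, and to 1 under median-ratio scaling, FPKM or coverage over depth. On these last scales both higher calls (Ifi203 and Ifi207) were lost and the 1 call was Ifi209, lower. Over the 11 alternative fits besides those that left a mouse out, Ifi203 was called in 5, Ifi207 in 6 and Ifi209, lower, in 4. An equal count of members thus need not mean the same members. Over all genes 31.1% were called at MC-38 12 h, against 10.5% with no filter and 8.56% with only the compared groups. The share was 16.2% under median-ratio scaling and under FPKM, and 17.9% by coverage. Members called in the 12 h interaction went from 7 to 3 with no filter, 2 without mitochondrial genes and 0 under median-ratio scaling, FPKM or coverage. The share of all genes called went from 45.4% to 19.2%, 15.5%, 2.84%, 3.37% and 4.4% in the same order. In the 24 h interaction 1 went to 0 under FPKM and with only the compared groups. There 1.81% of all genes were called, against 1.2% under FPKM and 0.215% with only the compared groups. With each mouse left out in turn the counts ran from 0 to 2 at RM-9 12 h, 0 to 3 at MC-38 12 h, 3 to 7 in the 12 h interaction and 0 to 2 in the 24 h interaction. The share of all genes called ran from 0% to 11.2%, 9.19% to 46.4%, 27.7% to 55.9% and 0.39% to 9.42% in the same order.

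Several log2 differences, all uncalled in the report, changed sign. Aim2 was at 0.0061 (median-ratio) and 0.090 (coverage) at RM-9 12 h, and at 0.0026 (FPKM) and 0.034 (coverage) at RM-9 24 h. Its 3 h interaction was -0.045 (median-ratio), -0.0015 (without mitochondrial genes) and -0.023 (FPKM). Its baseline difference was -0.58 (median-ratio), -0.34 (without mitochondrial genes), -0.37 (FPKM) and -0.53 (coverage). At MC-38 12 h, median-ratio scaling gave -0.12 for Ifi204, -0.23 for Ifi205, -0.14 for Ifi211 and -0.037 for Mndal, FPKM gave -0.049, -0.16 and -0.066 for the first 3, coverage gave -0.054, -0.15, -0.066 and -0.021 for the 4, and Ifi205 was at -0.015 without mitochondrial genes. Mndal at MC-38 3 h was -0.029 under median-ratio scaling.

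With each mouse left out in turn, the RM-9 24 h differences ran from -0.30 to 0.049 for Aim2, -0.049 to 0.40 for Ifi203, -0.026 to 0.24 for Ifi204, -0.075 to 0.28 for Ifi205, -0.025 to 0.26 for Ifi207, -0.12 to 0.55 for Ifi209, -0.029 to 0.58 for Ifi213 and -0.012 to 0.34 for Mndal. At RM-9 3 h they ran from -0.37 to 0.071 for Ifi204 and -0.15 to 0.059 for Ifi207, and at MC-38 3 h from -0.20 to 0.0021 for Ifi209. For Aim2 the baseline ran from -0.17 to 0.29 and the 3 h interaction from -0.12 to 0.34.

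Mouse numbers did not pair the libraries (median r of same-numbered mice -0.0726 in MC-38 and -0.0607 in RM-9). With the number as a replicate block 8 members were called at MC-38 24 h, 2 at MC-38 12 h, 6 in the 12 h interaction, 1 in the 24 h interaction and 8 at baseline. The share of all genes called was 15.4%, 36.2%, 50.2%, 2.79% and 76.5% in the same order. The sum over members was given by library and not tested.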
